A study of Mus musculus with 4 samples.

Results

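The CXCR3 chemokine axis was taken as 6 genes fixed by symbol: the ligand genes Cxcl9, Cxcl10 and Cxcl11, their shared receptor gene Cxcr3, and Cxcl16 with its receptor gene Cxcr6. All 6 were found among the 19308 genes that carry a count in every library. All 6 passed the filter on low counts and entered the test of 16956 genes. These genes and the gene lists used below were chosen with earlier results of these data known. Their shares beside those of all genes are therefore only descriptions. Transcript levels came from RNA sequencing of total RNA of mouse colonic mucosa. One group was wild-type (WT), labelled C57BL/6. The other lacked Itch, the gene of a HECT-type E3 ubiquitin ligase that restrains T cell activation (Itch knockout, Itch KO). Each group held 2 libraries. The protocol describes the knockout mucosa as inflamed, while the labels give the state inflammation for all 4 samples. The age and sex of the mice, the strain of the knockout mice, the making of the allele and the number of animals behind each group are not stated in the labels used here, so every p-value measures only the spread between these libraries.

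CXCL9, CXCL10 and CXCL11 are small secreted chemokines that interferon-gamma induces in macrophages, dendritic cells, endothelium and epithelium. They bind CXCR3, a G protein-coupled receptor on activated type 1 T helper cells, CD8 T cells and natural killer cells, and draw those cells into inflamed tissue, where the cells make more interferon-gamma. CXCL16 is made as a transmembrane protein that is shed by the metalloproteinases ADAM10 and ADAM17, and its receptor CXCR6 marks tissue-resident T cells and innate lymphoid cells. In the intestine CXCL16 is produced without inflammation, by epithelial and myeloid cells.

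Library totals over the 19308 shared genes ran from 8181193 to 12199709 counts, and levels are given in CPM (counts scaled to library size, with TMM factors). A floor of 3 counts corresponds to 0.244 to 0.369 CPM. Itch checked the labels, at 204 and 183 CPM in WT replicates 1 and 2 and 11.9 and 13.4 CPM in Itch KO replicates 1 and 2. Colonic epithelial genes were present in all 4 libraries, with a summed level of 1932 and 1679.9 CPM in the WT libraries and 2058 and 1562 CPM in knockout libraries for 11 genes. WT replicate 1 stood apart: the 8 squamous epithelial genes summed to 810 CPM there, against 14.2 CPM in WT replicate 2 and 27.6 and 34.7 CPM in the knockout libraries, and Cdx2, an intestinal transcription factor, was at 24.3 CPM there and at 115 to 140 CPM in the other 3 libraries. Values without that library are given for each axis gene and for most of the gene lists. They come from an edgeR fit where the lone WT library is assumed to vary like the knockout libraries.

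For every gene of the axis, both knockout values lay above both WT values. Of all tested genes 30.0% separated in that direction and 26.0% in the opposite one, and the 6 genes had a median log2 fold change of 2.22 against 0.01 over all tested genes. The largest differences were those of the 3 interferon-induced ligand genes, with log2 fold changes of 2.85 to 3.71, and the smallest those of Cxcl16 and Cxcr3. Fold changes spread less among genes of high read density (values below), and the effect on this order was not tested. No gene of the axis passed edgeR's quasi-likelihood test at a Benjamini-Hochberg adjusted p below 0.05, nor did any other of the 16956 genes (0.00%). Itch itself did not pass (log2 fold change -3.93, edgeR adjusted p = 0.0922). A missed threshold here therefore does not show that a gene is unchanged. At an unadjusted p below 0.05 in edgeR, 5 of the 6 genes were higher, as were 10.2% of all tested genes. Without WT replicate 1 it was 3 of the 6, Cxcl9, Cxcl10 and Cxcl16, against 8.35% of all genes tested. Without Itch KO replicate 2 the log2 fold changes in edgeR ran from 0.88 for Cxcr3 to 3.31 for Cxcl9. DESeq2, an alternative test, called Cxcl9, Cxcl10, Cxcl11 and Cxcl16 higher at an adjusted p below 0.05. These were 4 of the 6, against 5.35% of all genes with an adjusted p (4.85% were called lower). On simulated data DESeq2 also called 83 unchanged genes, a larger share of its calls than the threshold of 0.05 allows. With a library left out, the calls of DESeq2 among the 6 stayed the same or became fewer. Its calls over all genes became fewer each time, so the loss of calls does not single out the axis.

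**Figure D1:**
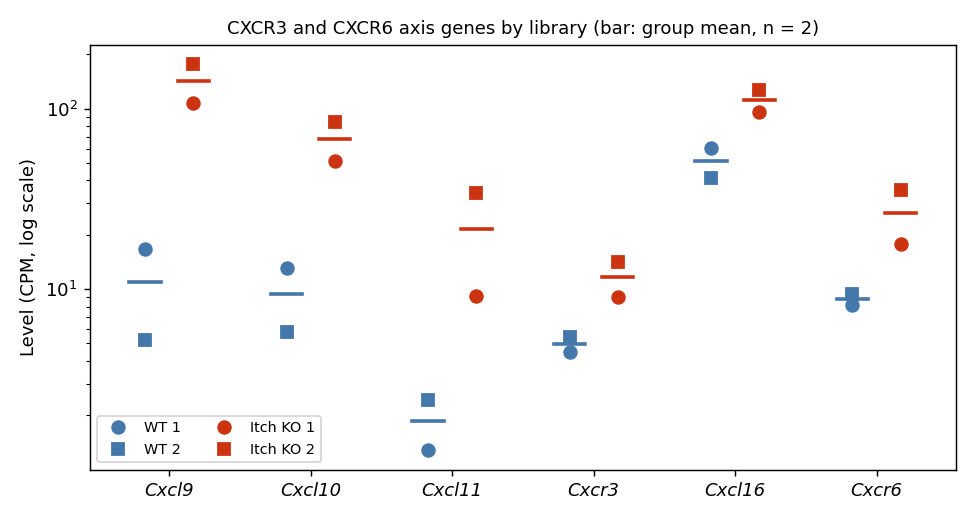
Level of each axis gene in CPM on a log axis, with WT libraries in blue, Itch KO libraries in red, circles for replicate 1, squares for replicate 2 and a bar at each group mean (n = 2). For all 6 genes both knockout points lie above both WT points, and replicate 2 is the higher knockout library for each gene.

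Cxcl9 (ENSMUSG00000029417, GRCm38 chromosome 5, 92321347 to 92328079, minus strand, protein-coding) encodes the CXCR3 ligand that depends most on interferon-gamma. It was at 16.6 and 5.22 CPM in WT replicates 1 and 2 and at 107 and 177 CPM in Itch KO replicates 1 and 2. The groups did not overlap: the lower knockout library was 6.43 times the higher WT library. Group means were 10.9 ± 8.08 and 142 ± 49.2 CPM (SD, n = 2 each), with a log2 fold change of 3.71 (SE 0.66, 95% interval 1.94 to 5.49). The adjusted p was 0.129 with edgeR's quasi-likelihood test and 1.25e-08 with DESeq2. WT replicate 1, the library with squamous transcripts, was the higher WT library, and without it the log2 fold change was 4.79.

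Cxcl10 (ENSMUSG00000034855, chromosome 5, 92346638 to 92348889, minus strand, protein-coding) encodes a ligand that both type I interferons and interferon-gamma induce. Its levels were 13.0 and 5.79 CPM in the WT libraries and 51.1 and 84.0 CPM in knockout libraries. As for Cxcl9, the lower of the WT values was that of replicate 2 and the groups were separate. The means were 9.40 ± 5.11 and 67.5 ± 23.2 CPM (SD, n = 2 each), and the log2 fold change was 2.85 (SE 0.52, 95% interval 1.44 to 4.26, edgeR adjusted p = 0.130, DESeq2 adjusted p = 9.29e-06). Without WT replicate 1 it was 3.57. The ratio of WT replicate 1 to replicate 2 was 3.19 for Cxcl9 and 2.25 for Cxcl10.

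Cxcl11 (ENSMUSG00000060183, chromosome 5, 92359544 to 92365485, minus strand) is annotated as a polymorphic pseudogene, since the C57BL/6 strain carries a frameshift that abolishes the protein. The strain of the knockout mice is not stated, so whether they carry the frameshift is not known. Counts of Cxcl11 speak here of the transcript and not of a ligand. It was the scarcest member per exonic length in WT mucosa, with 12 and 30 counts (1.28 and 2.44 CPM), against 75 and 330 counts (9.22 and 34.1 CPM) in the knockout libraries. The knockout libraries differed from each other more than for any other axis gene, by 3.70 times. The means were 1.86 ± 0.823 and 21.6 ± 17.6 CPM (SD, n = 2 each) and the log2 fold change 3.52 (SE 0.88, 95% interval 1.15 to 5.89, edgeR adjusted p = 0.168, DESeq2 adjusted p = 0.00146). Without Itch KO replicate 2 it was 2.30 and DESeq2 no longer called it (adjusted p = 0.71). Here WT replicate 2 was the higher WT library, unlike in Cxcl9 and Cxcl10, and without WT replicate 1 the log2 fold change was 3.17 (edgeR unadjusted p = 0.0607).

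The 3 ligand genes lie side by side on the minus strand, and Art3, an ADP-ribosyltransferase gene, runs through Cxcl10 and Cxcl11 on the plus strand. Exons of Art3 share 133 bases with Cxcl10, 5.91% of its exonic bases, and none with Cxcl11. No source used here says whether counting used strand, so reads of such shared bases cannot be told apart. Art3 itself had 511 and 390 counts in WT and 100 and 236 in knockout libraries, the opposite direction to Cxcl10. A processed pseudogene, Gm2673, covers 1582 exonic bases of Cxcl11 on the other strand, 41.7% of its exonic bases. Gm2673 had 0 counts in each of the 3 libraries that list it, which does not show whether reads of the shared bases were counted for Cxcl11. The effect on the level of Cxcl11 per exonic length was not tested.

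**Figure D2:**
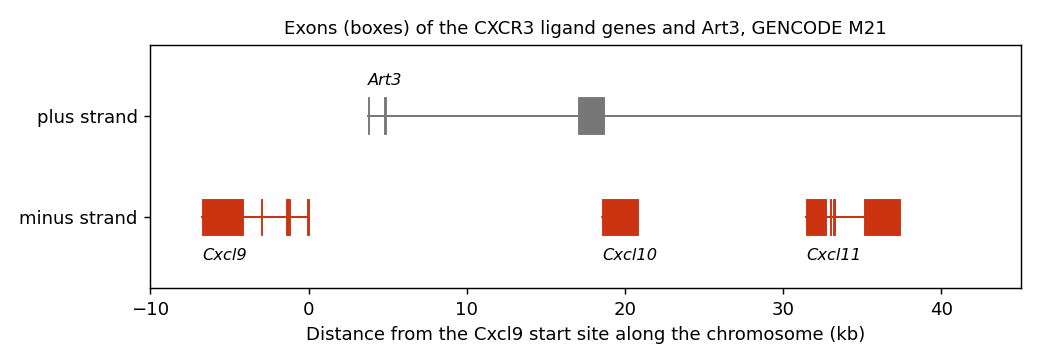
Exons (boxes) and gene bodies (lines) of Cxcl9, Cxcl10 and Cxcl11 on the minus strand and of Art3 on the plus strand, by distance in kb from the Cxcl9 start site. One Art3 exon ends inside the Cxcl10 exon, where 133 exonic bases are shared, and Art3 runs past Cxcl11 without a shared exon.

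Since Cxcl9 and Cxcl10 were higher together and are known interferon targets, the windows from 250 bases before to 50 bases after their start sites are shown, from RefSeq's GRCm38.p6 table, minus strand, 5′ to 3′. The table held such windows for 4 of the 6 genes, Cxcl9, Cxcl10, Cxcr3 and Cxcr6. Capitals mark matches on either strand to 4 motifs: the core of the interferon-stimulated response element (GAAA, any 2 bases, GAAA), the gamma-activated site (TTCNNNGAA), the NF-kB consensus and the T-box site (TCACACC). The Cxcl9 window is chr5:92328030-92328329 and the Cxcl10 window chr5:92348840-92349139.
Cxcl9: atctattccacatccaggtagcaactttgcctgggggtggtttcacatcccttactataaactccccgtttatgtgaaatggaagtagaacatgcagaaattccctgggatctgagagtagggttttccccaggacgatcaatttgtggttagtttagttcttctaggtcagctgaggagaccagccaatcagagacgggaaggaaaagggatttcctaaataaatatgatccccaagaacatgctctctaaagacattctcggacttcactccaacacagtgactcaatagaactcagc
Cxcl10: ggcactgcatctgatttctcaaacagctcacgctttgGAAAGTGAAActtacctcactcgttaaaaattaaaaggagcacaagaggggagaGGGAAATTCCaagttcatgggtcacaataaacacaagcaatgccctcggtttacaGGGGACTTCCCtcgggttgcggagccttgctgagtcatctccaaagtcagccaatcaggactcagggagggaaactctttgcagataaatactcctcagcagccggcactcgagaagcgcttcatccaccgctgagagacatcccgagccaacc
The Cxcl10 window held an interferon-stimulated response element core, GAAAGTGAAA, at -213 to -204 from the start site. It also held NF-kB matches at -159 to -150 and, overlapping each other, at -104 to -95 and -103 to -94. The windows of Cxcl9, Cxcr3 and Cxcr6 held no match to any of the 4, which says only that these letters are not in them. Over all 32817 windows of this length, 3.43% held the response element core, 8.29% the gamma-activated site, 8.46% the NF-kB consensus and 3.98% the T-box site. A match is a description of sequence and not evidence of binding.

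Cxcr3 (ENSMUSG00000050232, chromosome X, 101731535 to 101734269, minus strand, protein-coding), the receptor gene of these ligands, was at 4.48 and 5.46 CPM in the WT libraries and 9.09 and 14.1 CPM in knockout libraries. These levels rest on 42, 67, 74 and 137 counts. The groups did not overlap, but the lower knockout library was only 1.67 times the higher WT library. The means were 4.97 ± 0.692 and 11.6 ± 3.58 CPM (SD, n = 2 each), with a log2 fold change of 1.22 (SE 0.49) whose 95% interval of -0.10 to 2.54 included 0. Cxcr3 was not called by edgeR (adjusted p = 0.276) or DESeq2 (adjusted p = 0.31), and it was the member without an unadjusted p below 0.05. Its log2 fold change without WT replicate 1 was 1.11.

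Cxcl16 (ENSMUSG00000018920, chromosome 11, 70453983 to 70459984, minus strand, protein-coding) was the most abundant member per exonic length in WT mucosa. It was at 60.8 and 41.2 CPM in the WT libraries and 95.1 and 127 CPM in knockout libraries, without overlap, the lower knockout library being 1.56 times the higher WT library. The means were 51.0 ± 13.8 and 111 ± 22.7 CPM (SD, n = 2 each), and the log2 fold change was 1.13 (SE 0.27, 95% interval 0.41 to 1.85, edgeR adjusted p = 0.158, DESeq2 adjusted p = 0.0144). Without WT replicate 1 the log2 fold change was 1.45. DESeq2 lost this call with WT replicate 2 left out (adjusted p = 0.371), with Itch KO replicate 1 left out (adjusted p = 0.0503) and with Itch KO replicate 2 left out (adjusted p = 0.476). Zmynd15, on the plus strand, shares 552 exonic bases with Cxcl16, 18.3% of its exonic bases, and had 87 and 187 counts in WT and 200 and 538 in knockout libraries. The counts of Zmynd15 were likewise higher in the knockout libraries, and the effect of the shared bases on the counts of Cxcl16 was not tested.

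Cxcr6 (ENSMUSG00000048521, chromosome 9, 123806475 to 123811760, plus strand, protein-coding), the receptor gene of CXCL16, was at 8.21 and 9.45 CPM in the WT libraries and 17.8 and 35.2 CPM in knockout libraries. The WT libraries were close together, and Itch KO replicate 2 was 1.98 times replicate 1. The means were 8.83 ± 0.876 and 26.5 ± 12.3 CPM (SD, n = 2 each), and the log2 fold change was 1.58 (SE 0.47, 95% interval 0.31 to 2.85, edgeR adjusted p = 0.200, DESeq2 adjusted p = 0.0531). In DESeq2 on all listed genes, with no count filter, the adjusted p was 0.0494, so its side of the threshold turned on the filter. Without Itch KO replicate 2 the log2 fold change was 1.02, and without WT replicate 1 it was 1.51 (edgeR unadjusted p = 0.0945). The gene lies within Fyco1, which is on the other strand and shares no exonic base with it.

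**Figure D3:**
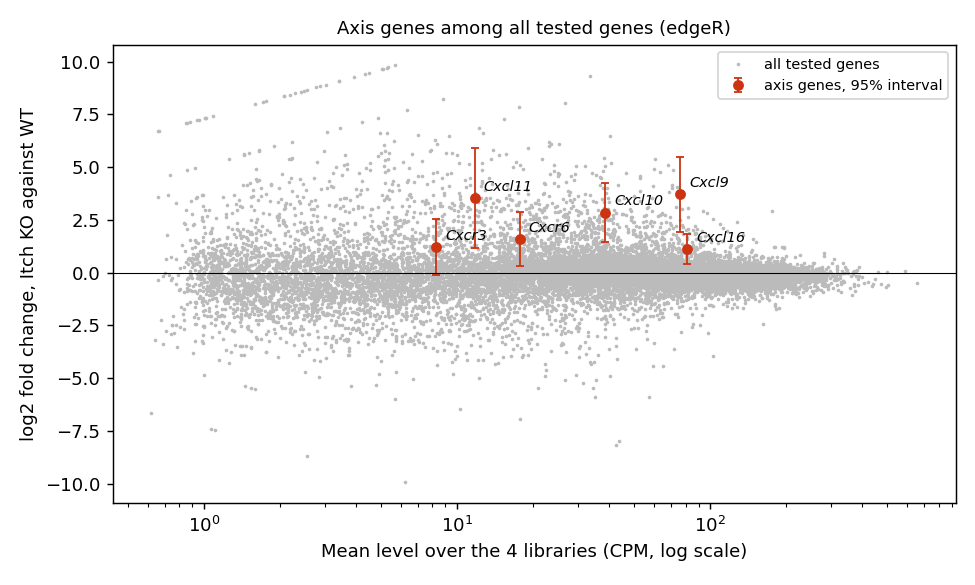
The log2 fold change of Itch KO against WT in edgeR is plotted against the mean level of a gene over the 4 libraries in CPM, on a log axis, with all tested genes in grey and the 6 axis genes in red with their 95% intervals. The intervals of Cxcl9, Cxcl10, Cxcl11, Cxcl16 and Cxcr6 lie above 0, and that of Cxcr3 runs from -0.10 to 2.54.

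Levels of different genes were compared as CPM per kilobase of exon. In WT replicate 1 the order was Cxcl16 (20.1), Cxcl10 (5.78), Cxcl9 (5.52), Cxcr6 (4.25), Cxcr3 (2.59) and Cxcl11 (0.337). In WT replicate 2 Cxcl16 was again the highest (13.6), but Cxcr6 (4.90) and Cxcr3 (3.15) stood above Cxcl10 (2.57) and Cxcl9 (1.73), with Cxcl11 the lowest (0.644). In both knockout libraries Cxcl9 came first, at 35.5 and 58.6, followed by Cxcl16 (31.5 and 42.1), Cxcl10 (22.7 and 37.3) and Cxcr6 (9.23 and 18.2). Cxcr3 (5.25 and 8.17) and Cxcl11 (2.43 and 8.98) were the lowest and changed places between the knockout libraries. Over the knockout group Cxcl9 averaged 47.0 ± 16.3, Cxcl16 36.8 ± 7.52 and Cxcl10 30.0 ± 10.3 (SD, n = 2 each). The order of these 3 was the same in both knockout libraries, while the ranges of neighbours in it overlapped between libraries. In WT, Cxcl10, Cxcr6 and Cxcl9 averaged 4.17 ± 2.27, 4.57 ± 0.453 and 3.62 ± 2.68, with overlapping ranges. The annotated exons of Cxcl10 merge into 1 block of 2252 bases, the length of the whole gene, so its value per kilobase is that of a length without an intron removed.

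Interferon-gamma is a known inducer of these ligands, and its part in their levels here was not tested. A list of 16 genes described its pathway, from the cytokines of type 1 induction to the receptor and its transcription factors. edgeR called none of the 16, 7 were higher and 0 lower at an unadjusted p below 0.05 (10.2% and 9.52% of all tested genes), DESeq2 called 6 higher (5.35% of all genes with an adjusted p), and their median log2 fold change was 0.63. Ifng, which encodes interferon-gamma, was at 0.960 and 0.326 CPM in the WT libraries and 7.62 and 45.5 CPM in knockout libraries (log2 fold change 5.38), so knockout replicate 2 was the higher library here too. Stat4, the factor downstream of interleukin-12, was at 5.12 and 6.85 CPM against 30.5 and 41.7 CPM (log2 fold change 2.59). Tbx21, which encodes T-bet, an activator of Cxcr3 transcription, was at 2.56 and 4.40 CPM against 7.86 and 15.3 CPM. The receptor and kinase genes Ifngr1, Ifngr2, Jak1 and Jak2 overlapped between groups, with log2 fold changes of -0.02 to 0.15. They were abundant, at 115 to 232 CPM, and fold changes spread less among genes of high read density (values below). Whether this made their fold changes small was not tested, so these values do not show that the genes are unchanged.

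Other genes that interferon-gamma induces stood higher alongside the ligands. Of the 18 on the list all had a positive log2 fold change, 17 had groups without overlap (30.0% of all tested genes in that direction), 16 had an unadjusted p below 0.05 in edgeR (10.2% of all tested genes in that direction) and 0 passed after adjustment, with 13 called higher by DESeq2 (5.35% of all genes with an adjusted p). Their median log2 fold change was 1.14, below those of Cxcl9, Cxcl10 and Cxcl11. Ciita, the master activator of MHC class II genes, was at 22.5 and 19.1 CPM in the WT libraries and 102 and 113 CPM in knockout libraries. Socs1, the feedback inhibitor of the pathway, was at 8.11 and 10.3 CPM against 40.2 and 61.5 CPM. Nos2, the inducible nitric oxide synthase, was at 58.0 and 24.4 CPM against 294 and 324 CPM.

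Of 10 genes that process, shed or scavenge the ligands, 8 had a positive log2 fold change, 6 were higher without overlap and 1 lower (30.0% and 26.0% of all tested genes), and the median log2 fold change was 0.23. At an unadjusted p below 0.05 in edgeR 2 were higher and 1 lower (10.2% and 9.52% of all tested genes), 0 passed after adjustment, and DESeq2 called Mmp9 higher and Dpp4 lower (5.35% and 4.85% of all genes with an adjusted p). Dpp4, the cell-surface peptidase that truncates CXCL9, CXCL10 and CXCL11, was at 93.7 and 138 CPM in the WT libraries and 34.9 and 25.0 CPM in knockout libraries (log2 fold change -1.95, SE 0.29, edgeR adjusted p = 0.123, DESeq2 adjusted p = 6.15e-07). Mmp9, a neutrophil gelatinase that also cleaves chemokines, was at 11.3 and 5.38 CPM against 84.3 and 183 CPM. Adam10, a sheddase of CXCL16, overlapped at 208 and 176 CPM against 206 and 176 CPM, and Adam17 was at 123 and 112 CPM against 132 and 146 CPM. Ackr3, which encodes a scavenger receptor of CXCL11 and CXCL12, overlapped at 61.0 and 34.9 CPM against 33.3 and 65.2 CPM. Pf4, the gene of another CXCR3 ligand carried by platelets, was at 14.1 and 8.72 CPM against 21.3 and 28.5 CPM.

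Among 18 genes that transmit signals below both receptors, 9 were higher and 1 lower at an unadjusted p below 0.05 in edgeR (10.2% and 9.52% of all tested genes) and 0 passed after adjustment. DESeq2 called 7 higher (5.35% of all genes with an adjusted p), and the median log2 fold change was 1.18. Rac2, a leukocyte GTPase, was at 38.0 and 50.0 CPM in the WT libraries and 117 and 148 CPM in knockout libraries, and Itgal, which encodes an integrin chain that chemokines activate, at 28.0 and 17.7 CPM against 108 and 174 CPM. Gnb1, a widely expressed G protein subunit gene, was at 206 and 177 CPM against 242 and 215 CPM.

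Of the other CXC chemokine and receptor genes, 12 of 14 were tested; Cxcl15 and Cxcl17 did not pass the filter. Of the 12, 8 were higher and 0 lower at an unadjusted p below 0.05 in edgeR (10.2% and 9.52% of all tested genes), and 0 passed after adjustment. DESeq2 called 7 higher (5.35% of all genes with an adjusted p), and the median log2 fold change was 2.63, or 5.20 without WT replicate 1. Cxcr5, the receptor gene that guides B cells into follicles, was at 4.80 and 4.97 CPM in the WT libraries and 55.8 and 68.2 CPM in knockout libraries, and its ligand gene Cxcl13 at 17.1 and 15.3 CPM against 72.1 and 62.0 CPM. Cxcl12, a constitutive stromal ligand gene, overlapped at 153 and 132 CPM against 130 and 229 CPM. The median of these genes was above that of the axis.

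Without WT replicate 1 the number of genes higher at an unadjusted p below 0.05 in edgeR, against 8.35% of all tested genes (7.25% were lower), was 6 of 16 for the interferon-gamma input and 17 of 18 for the induced genes, whose median log2 fold change became 1.64. It was 3 of 10 for the processing genes, where 1 was lower, 8 of 18 for the signalling genes and 9 of 12 for the other CXC genes. None passed after adjustment in these lists.

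**Figure D4:**
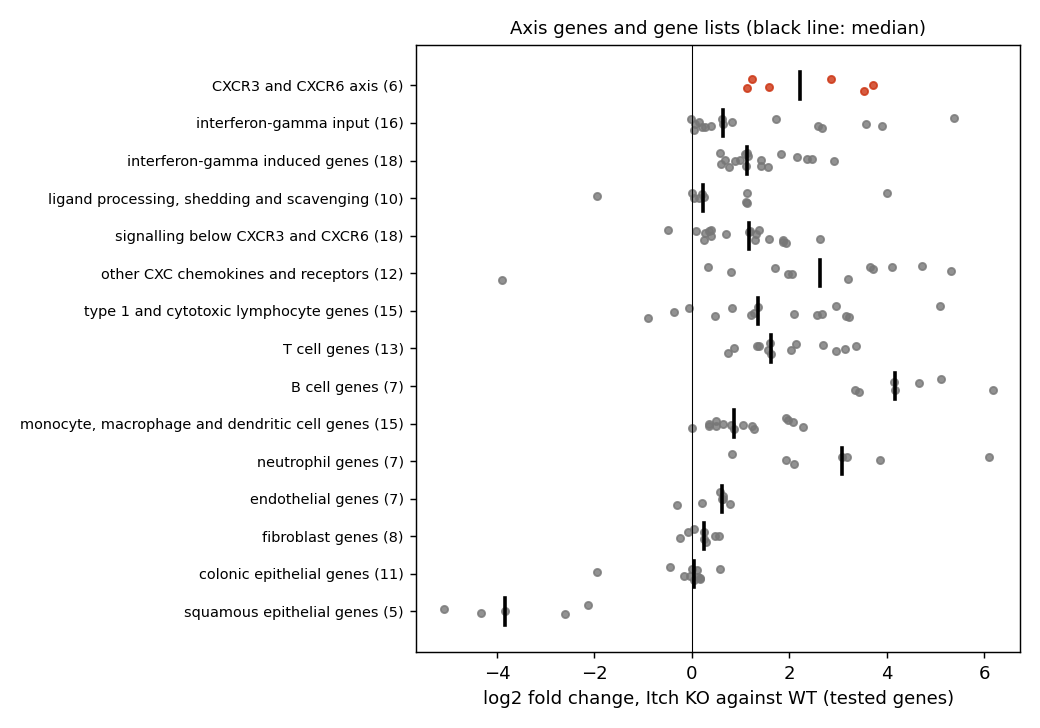
Each point is the log2 fold change of Itch KO against WT for a tested gene of the CXCR3 and CXCR6 axis (red) or of a gene list (grey, number of tested genes in brackets), with a black line at the median. The axis median of 2.22 lies above those of the interferon-gamma lists (0.63 and 1.14) and below those of other CXC genes (2.63), B cell genes (4.17) and neutrophil genes (3.08).

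Markers of the cells that make or carry these molecules also differed between the groups. In bulk tissue, more cells of a type and more RNA per cell cannot be told apart. All 13 T cell genes had groups without overlap, all in the direction of higher knockout values (30.0% of all tested genes), with a summed level of 152 and 156 CPM in the WT libraries and 363 and 522 CPM in knockout libraries. The 15 monocyte, macrophage and dendritic cell genes summed to 588 and 456 CPM against 864 and 1322 CPM, with 11 of 15 without overlap and higher, against the same 30.0%. Type 1 and cytotoxic lymphocyte genes summed to 102 and 114 CPM against 294 and 510 CPM, and 11 of 15 were higher without overlap, also against 30.0%. Gzma and Gzmb, which encode granzymes, had log2 fold changes of 2.97 and 3.22 in edgeR. The natural killer cell markers Klrb1c and Ncr1 overlapped, at 4.05 and 6.36 CPM against 2.46 and 5.58 CPM and at 3.63 and 2.04 CPM against 0.614 and 2.38 CPM. Endothelial genes summed to 571 and 410 CPM against 540 and 896 CPM and fibroblast genes to 1740 and 1080.4 CPM against 1327 and 2006 CPM, overlapping between groups. edgeR called none of these markers, and DESeq2 called 7 of the 13 T cell genes, 6 of the 15 myeloid genes and 7 of the 15 type 1 genes higher, against 5.35% of all genes with an adjusted p. It also called 4 of the 7 tested neutrophil genes, all 7 B cell genes and 1 of 7 endothelial genes, Plvap, a gene of fenestrated endothelium, higher, and 0 of 8 fibroblast genes. Without WT replicate 1 the number higher at an unadjusted p below 0.05 in edgeR (8.35% of all tested genes) was 9 of 13 T cell genes, 8 of 15 myeloid genes and 7 of 15 type 1 genes, against 10, 7 and 7 with it (10.2%). For neutrophil genes it was 7 of 8 tested against 4 of 7. No listed marker of T cells, myeloid cells or lymphocytes had 0 counts in all 4 libraries. Neutrophil genes summed to 116 and 17.6 CPM in the WT libraries and 309 and 456 CPM in the knockout libraries, so that WT replicate 1 was above WT replicate 2 there as it was for Cxcl9 and Cxcl10; the part of these cells in the values was not tested.

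Set against the T cell genes of the same library, the receptor genes were not higher in knockout mucosa. The log2 ratio of Cxcr3 to the summed T cell genes was -5.08 and -4.84 in WT and -5.32 and -5.21 in knockout libraries, a difference of -0.30 (exact two-sided permutation p = 0.333). For Cxcr6 it was -4.21 and -4.05 against -4.35 and -3.89, with overlapping groups and a difference of 0.01 (exact permutation p = 1). With 2 libraries against 2 the smallest p such a test can give is 0.333, so it cannot pass 0.05 and does not show equality. Thy1 had the highest CPM of the summed T cell genes, at 58.3 and 40.7 CPM in WT and 65.4 and 100 CPM in knockout libraries (log2 fold change 0.74 in edgeR). The sum thus leans on Thy1, and ratios without it were not computed.

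Cxcl9 and Cxcl10 were higher also relative to myeloid genes. The log2 ratio of Cxcl9 to the summed monocyte, macrophage and dendritic cell genes was -5.14 and -6.45 in WT and -3.01 and -2.90 in knockout libraries, a difference of 2.84 (exact permutation p = 0.333, the smallest possible). For Cxcl10 it was -5.50 and -6.30 against -4.08 and -3.98, a difference of 1.87 with the same p. Both knockout libraries had nearly the same ratio, although Itch KO replicate 2 had 1.65 times the Cxcl9 level of replicate 1. The Cxcl16 ratio was -3.27 and -3.47 against -3.18 and -3.38, a difference of 0.09 with overlapping groups (exact permutation p = 0.667). The 5 ratios were all that were computed, and none could pass a correction for their number.

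**Figure D5:**
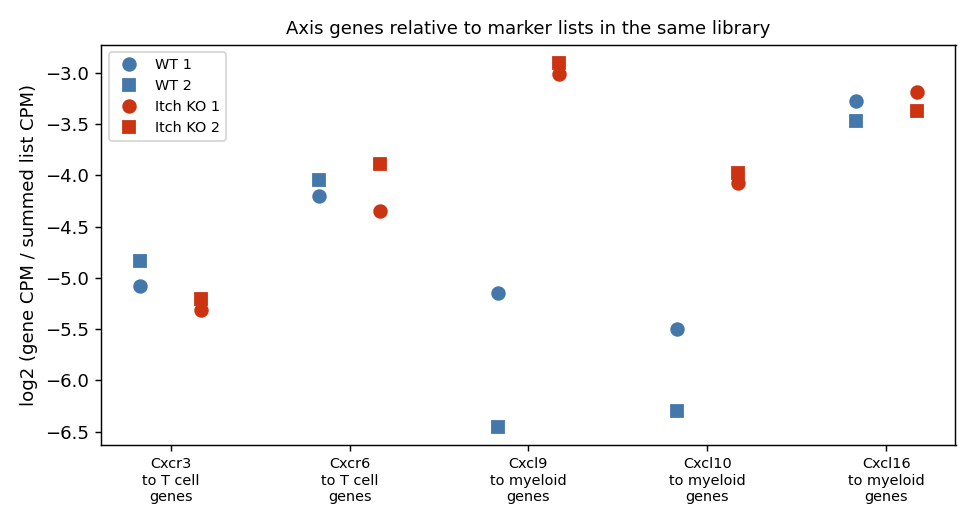
The log2 ratio of a gene's CPM to the summed CPM of a marker list in the same library, for Cxcr3 and Cxcr6 to T cell genes and for Cxcl9, Cxcl10 and Cxcl16 to myeloid genes (monocyte, macrophage and dendritic cell list), with WT in blue, Itch KO in red, circles for replicate 1 and squares for replicate 2. Only the Cxcl9 and Cxcl10 ratios separate with the knockout points on top, and the Cxcr3 ratios lie slightly lower.

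Genes whose profile over the 4 libraries was most like that of Cxcl9 or Cxcr3 were found by the Euclidean distance between centred log2 CPM values, among 13371 genes whose mean reached 5 CPM. For Cxcl9 these were Il1r2, Mmp3, AB124611, Chst3 and Bst1, at distances of 0.21 to 0.41. Il1r2, the interleukin-1 decoy receptor gene, was at 9.50 and 2.69 CPM in the WT libraries and 51.4 and 86.4 CPM in knockout libraries. Cxcl10 was 71st in that order (distance 1.03). For Cxcr3 they were genes such as Mfng, Agap2, Ccl11 and Cox6b2, at distances of 0.12 to 0.14, and Cxcr6 was 110th (distance 0.41) and Cxcl16 338th (distance 0.61). Mfng, a Notch-modifying glycosyltransferase gene, was at 13.5 and 14.6 CPM against 25.6 and 39.2 CPM. With 4 libraries in 2 groups, many genes share such a profile.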

How the data were processed

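The files the authors deposited hold raw read counts per gene, with a file for each library. Per the submitters' processing notes, HTSeq 0.6.1, SAMtools 0.1.19, TopHat2 and CASAVA 1.8.2 were used, and GRCm38 and mm10 are the builds named. WT replicate 1 has a file of 19308 genes with symbols, and the other 3 list 39179 genes by identifier. Analysis used the 19308 shared genes, with 97.3% to 97.7% of the gene counts of the longer files. HTSeq summary lines were left out: reads outside genes made up 18.2% to 23.0% and ambiguous reads 2.67% to 3.03% of those files. Libraries were grouped by title. The labels give no batch.

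Itch KO was compared with WT by edgeR 4.0.16 (R 4.3.3; TMM, filterByExpr with a minimum count of 10, robust quasi-likelihood test, two-sided, Benjamini-Hochberg over 16956 genes), with 2 residual degrees of freedom. DESeq2 1.42.0 and limma voom 3.58.1 were alternatives, besides other normalizations and filters, a replicate block and each library left out. Scripts were tested on simulated data: among 16956 genes, edgeR called 2 and DESeq2 20 of 72 genes simulated with a 2-fold change, and 41 and 49 of 64 with a 4-fold change. Of 64 genes with an 8-fold change edgeR and DESeq2 called 39 and 50. They also called 9 and 83 unchanged genes, for both a larger share of calls than the threshold of 0.05 allows. The simulated spread was that of the edgeR fit. In the real data edgeR called 0 genes and missed Itch, so the simulated shares need not hold there. Exon lengths and positions came from GENCODE M21 (GRCm38). Genes named from lists were the called members or, as none was called, the 2 with the smallest p and the most abundant member; further names were chosen with their values in view, and some genes are not reported here. The files call Ackr1 Darc, Adgre1 Emr1 and Grk2 Adrbk1. The axis genes and lists were chosen with earlier results of these data known.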

Additional observations from a re-analysis of the deposited data

How the results depend on the processing

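No axis gene changed direction under any of the 14 alternatives, and edgeR and limma voom called 0 genes in every setting, against 3343 with an unadjusted p below 0.05 in the main edgeR test. DESeq2 called 1696 genes (889 higher, 807 lower), or 1752 on all listed genes, and gave log2 fold changes past the threshold of 3.67 or, on all listed genes, 3.68 for Cxcl9, 2.82 or 2.83 for Cxcl10, 3.51 or 3.52 for Cxcl11, 1.10 in both for Cxcl16 and, on all listed genes, 1.57 for Cxcr6. The number of axis genes it called was 4, and 5 on all listed genes. With a library left out that number ranged from 1 to 4 (1 without Itch KO replicate 2, when its calls over all genes were 158 higher and 280 lower). Log2 fold changes in edgeR with a library left out ranged from 3.09 to 4.79 for Cxcl9, 2.37 to 3.57 for Cxcl10, 2.30 to 4.18 for Cxcl11, 0.88 to 1.51 for Cxcr3, 0.87 to 1.45 for Cxcl16 and 1.02 to 1.99 for Cxcr6. With a replicate block the values were 3.84, 2.91, 3.34, 1.20, 1.14 and 1.51 in the same order, and no call changed. Deviations of same-numbered libraries from their group means correlated at 0.0481 over genes, which cannot show whether such libraries shared a batch. Counts may be compressed at high read density. WT replicate 2 had 1.26 times the counts of replicate 1, but the median ratio over genes was 1.18 in the decile of highest density. It was 1.55 in the decile of lowest density. The interquartile range of log2 fold changes between Itch KO and WT was 0.31 in the decile of highest density and 1.57 in that of lowest density. Cxcl9, Cxcl16 and Cxcl10 were at the 98.1st, 93.9th and 91.3rd percentiles of density in Itch KO replicate 2. The effect on their fold changes, order per kilobase and ratios to myeloid genes was not tested. Nor was the effect on the fold changes of other abundant genes named above. All causes of these shifts were not tested.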

Other observations

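Ppbp, the gene of a platelet CXC chemokine that lies in the same chemokine family, was at 70.4 CPM in WT replicate 1 and at 1.14 CPM in WT replicate 2 and 0.614 and 4.13 CPM in the knockout libraries. Cxcl5, a neutrophil-attracting chemokine gene, was at 51.0 and 0.163 CPM in the WT libraries and 86.1 and 113 CPM in knockout libraries, and Cxcr2, a receptor gene of neutrophils, at 12.6 and 0.733 CPM against 72.5 and 151 CPM. The WT libraries thus differed more in these genes than in Cxcl9 (16.6 and 5.22 CPM) or Cxcr3 (4.48 and 5.46 CPM). Il12b, which encodes a subunit of interleukin-12, was high in Itch KO replicate 2 alone, at 23.4 CPM against 0.983 CPM in Itch KO replicate 1 and 0.533 and 1.47 CPM in WT.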
